A study of Homo sapiens with 8 samples.

Results

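The 10 genes described here encode the replicative helicase and the factor most closely tied to its start. They were MCM2, MCM3, MCM4, MCM5, MCM6 and MCM7, the subunits of the ring-shaped hexamer, CDC45 and the GINS subunits GINS1 and GINS2, which join the ring to form the CMG (CDC45, MCM, GINS) helicase, and MCM10, which binds CMG as it starts to move. They were listed by symbol with no cut on a measured value, but earlier results of these data were known when they were chosen. All 10 were found among the 19952 gene symbols of the tables. The RNA came from 92.1 and MEL290, both labelled as human uveal melanoma (UVM) lines, in which the cytidine deaminase APOBEC3B (A3B) had been depleted or overexpressed. In 92.1, shCtrl cells were set against shA3B cells, which carried a short hairpin against A3B in the pGIPZ-TurboGFP-puro vector. The methods describe the shCtrl cells as carrying empty vector, and the labels do not say which hairpin the shA3B cells carried. In MEL290, NC control cells were set against A3B OE cells, which carried full-length A3B in the pHAGE-puro vector. Cells were described as infected with lentivirus and selected with puromycin, and each of the 4 groups had 2 libraries. No source used here says that the 2 libraries of a group came from separate cultures, so the p-values measure the spread between these libraries, which may be technical.

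Levels were deposited as FPKM, fragment numbers divided by transcript length and by the fragments mapped in the library, so that genes can be set side by side. A3B itself followed the labels, at 35.9 and 32.3 FPKM in shCtrl against 1.98 and 2.37 in shA3B, and at 2.67 and 2.19 FPKM in NC against 28.4 and 27.5 in A3B OE. Of 8 melanocyte markers, all were higher in shCtrl than in NC by limma's test, and their summed level was 7153 to 8762 FPKM in the 92.1 libraries but 15.2 to 20.7 FPKM in those of MEL290, where most of it was MITF and where TYR was listed at 0 in all 4 libraries. The fibroblast genes COL1A1, COL1A2 and PDGFRB had mean sums of 44.7 FPKM in NC and 54.0 FPKM in A3B OE, but of 2.29 and 2.80 FPKM in shCtrl and shA3B. In MEL290 nearly all of this sum was COL1A1 and PDGFRB, with COL1A2 at 0.0764 to 0.260 FPKM. Neither a melanocyte nor a fibroblast identity of MEL290 was thus shown by these markers. Leukocyte and endothelial markers summed to less than 1 FPKM in every library. Epithelial markers summed to at most 2.75 FPKM, a level reached in the second library of both NC and A3B OE. Of these markers KRT14, a keratin gene, was at 1.98 and 2.36 FPKM in NC and at 0.412 and 0.545 FPKM in A3B OE. Its log2 fold change was -1.10 (limma, adjusted p = 0.0091). CDH1 and EPCAM had higher means in A3B OE and were too low to be tested. CDH1 was at most 0.393 FPKM in NC and at 0.301 and 2.14 FPKM in A3B OE. EPCAM was at 0 in NC and at 0.0575 and 0.0704 FPKM in A3B OE, and KRT5 was at 0 in every library. The part of these markers in the results was not tested. The lowest FPKM steps gave a rough depth of 17500000 to 31600000 fragments per library.

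The MCM2-7 hexamer is loaded onto origins in G1 by the origin recognition complex ORC, CDC6 and CDT1, as an inactive pair of rings. In S phase the kinases CDC7-DBF4 and CDK recruit CDC45 and GINS, MCM10 helps the ring to open its strands, and the CMG helicase then unwinds DNA ahead of the polymerases until it is taken off by the ubiquitin-directed ATPase VCP (also called p97). Cells load more hexamers than they fire, and the spare rings act as reserve origins when forks stall. The genes are classical targets of E2F transcription factors and are expressed in dividing cells.

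Promoter windows of these genes are shown because the members moved together in MEL290. RefSeq entries on GRCh38.p14 were given for 8 of the 10 genes in 12 windows, each running from 250 bases before to 50 bases after a transcription start, and MCM4 and MCM5 had no entry. The E2F spellings searched on both strands were TTTCCCGC, TTTCGCGC, TTTGCCGC and TTTGGCGC, which can overlap each other where the site reads alike on both strands. They were present in 6 of 12 windows and 6 of 8 genes, against 3.31% of all 35116 windows of the same length. The CCAAT box, the letters bound by NF-Y, was in 10 of 12 windows and 7 of 8 genes, against 34.6% of all windows. The CHR element, TTTGAA, was in none of them, against 15.2% of all windows. CDC45 and MCM7 each had 3 windows, some of which overlap, and in CDC45 the same CCAAT boxes were counted in more than 1 window. Shares over all promoters were taken per window, so the counts of genes have no matching share. Shown are 4 genes with an E2F spelling, MCM2, MCM3, MCM6 and GINS2, and 1 of the 3 windows of CDC45, none of which held one. They lie at chr3:127598161-127598460 (MCM2) and chr22:19479216-19479515 (CDC45) on the plus strand and at chr6:52284693-52284992 (MCM3), chr2:135876394-135876693 (MCM6) and chr16:85688905-85689204 (GINS2) on the minus strand. They read 5′ to 3′, with the E2F spellings in capitals:
MCM2: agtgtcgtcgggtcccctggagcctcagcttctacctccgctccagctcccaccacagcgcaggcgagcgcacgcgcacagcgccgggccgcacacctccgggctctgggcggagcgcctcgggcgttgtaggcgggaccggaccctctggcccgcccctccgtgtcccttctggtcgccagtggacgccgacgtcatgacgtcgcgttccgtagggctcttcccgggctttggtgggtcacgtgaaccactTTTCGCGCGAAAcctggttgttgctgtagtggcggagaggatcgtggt
MCM3: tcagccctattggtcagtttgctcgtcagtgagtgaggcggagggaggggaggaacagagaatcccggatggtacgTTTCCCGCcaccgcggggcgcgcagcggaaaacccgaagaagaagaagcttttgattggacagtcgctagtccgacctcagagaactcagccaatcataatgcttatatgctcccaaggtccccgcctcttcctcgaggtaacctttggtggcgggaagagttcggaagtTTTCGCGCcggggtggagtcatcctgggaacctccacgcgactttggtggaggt
MCM6: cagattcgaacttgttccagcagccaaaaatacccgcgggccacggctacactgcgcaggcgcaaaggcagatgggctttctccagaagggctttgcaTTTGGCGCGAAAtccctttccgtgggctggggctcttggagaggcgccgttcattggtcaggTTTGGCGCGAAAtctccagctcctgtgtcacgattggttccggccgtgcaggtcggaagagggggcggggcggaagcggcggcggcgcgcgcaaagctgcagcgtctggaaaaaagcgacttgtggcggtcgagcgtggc
GINS2: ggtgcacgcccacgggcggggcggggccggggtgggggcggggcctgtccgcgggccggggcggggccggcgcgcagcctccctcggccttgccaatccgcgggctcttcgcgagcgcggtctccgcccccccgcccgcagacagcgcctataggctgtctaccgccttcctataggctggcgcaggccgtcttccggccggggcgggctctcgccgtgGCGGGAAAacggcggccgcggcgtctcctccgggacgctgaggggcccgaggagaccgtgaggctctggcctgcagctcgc
CDC45: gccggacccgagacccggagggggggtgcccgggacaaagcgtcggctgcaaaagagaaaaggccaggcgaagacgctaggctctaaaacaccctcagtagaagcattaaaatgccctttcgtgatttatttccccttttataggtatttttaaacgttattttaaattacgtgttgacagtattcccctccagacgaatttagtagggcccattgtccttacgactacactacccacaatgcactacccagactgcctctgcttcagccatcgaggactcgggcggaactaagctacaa
MCM6 carried overlapping pairs of spellings at 2 places upstream of its start, in MCM2 the pair lay just after the start, and in MCM3 a spelling lay across the start with another upstream. GINS1 and MCM7 also held a spelling, while MCM10 and the 3 windows of CDC45 held none of these letters. The CDC45 window shown also held no CCAAT box, whereas its other windows did. Only the 4 spellings were searched, so near spellings, such as the TTTGGCGG in 1 window of CDC45 and in that of MCM10, were not counted. These matches describe letters in the windows and are not binding sites.

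The first comparison asked how the helicase genes stood in MEL290 cells that overexpressed A3B. All 10 had higher levels in A3B OE cells than in NC cells, by 1.46 to 2.04 times in mean FPKM, and all 10 passed limma's test, where 10.3% of the 11611 genes tested were called higher. The median log2 fold change of the 10 was 0.74, from 0.46 to 0.96 on the log2(FPKM + 1) scale, against 0.0041 for all genes tested. In each of the 10, both A3B OE libraries were above both NC libraries, an order seen in 31.5% of the genes tested. The rough depth was 27800000 and 22900000 fragments in the A3B OE libraries and 17500000 and 20500000 in the NC libraries, and the part of depth in these values was not tested. RNA from whole cultures cannot tell a larger share of cells in S phase from more of these transcripts per cell.

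Among the hexamer subunits, MCM2 had the largest log2 fold change and MCM7 the smallest. MCM2, whose tail carries histones at the fork, was at 11.2 and 10.7 FPKM in NC and at 22.9 and 21.8 FPKM in A3B OE. The libraries of each group lay close together, with means of 10.97 ± 0.339 and 22.4 ± 0.788 FPKM (SD, n = 2), and the log2 fold change was 0.96 (SE 0.097, adjusted p = 0.0035). MCM3, which pairs with MCM5 at one interface of the ring, was at 17.5 and 17.6 FPKM in NC and at 36.2 and 32.1 FPKM in A3B OE. Its log2 fold change was 0.92 (SE 0.097, adjusted p = 0.0037). MCM5, which sits at the gate through which DNA enters the ring, was at 14.7 and 19.1 FPKM in NC and at 36.8 and 26.9 FPKM in A3B OE. The groups did not overlap, but MCM5 had the widest spread of the 10 on the log2 scale in both of them, and its log2 fold change of 0.87 carried an SE of 0.18 (95% confidence interval 0.43 to 1.32, adjusted p = 0.025).

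MCM4, MCM6 and MCM7 form the part of the ring that has helicase activity by itself in vitro. MCM6 was at 9.63 and 8.31 FPKM in NC and at 15.9 and 16.0 FPKM in A3B OE, a log2 fold change of 0.77 (SE 0.11, adjusted p = 0.0098). MCM4 was at 36.8 and 43.3 FPKM in NC and at 68.5 and 55.1 FPKM in A3B OE. MCM7, the subunit with the highest level in MEL290, was at 52.6 and 50.6 FPKM in NC and at 83.2 and 71.0 FPKM in A3B OE. Their ratios of mean FPKM, 1.54 and 1.49, were below those of MCM2 and MCM3, 2.04 and 1.95, with log2 fold changes of 0.61 for MCM4 (SE 0.13, adjusted p = 0.027) and 0.56 for MCM7 (SE 0.096, adjusted p = 0.014). The first A3B OE library was the higher of its group for 5 of the 6 subunits, MCM6 being the exception.

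CDC45, the subunit that joins the loaded ring and clamps its side gate, was at 7.32 and 5.95 FPKM in NC and at 11.3 and 12.2 FPKM in A3B OE. The rise was 1.77-fold in mean FPKM, with a log2 fold change of 0.75 (SE 0.13, interval 0.42 to 1.08, adjusted p = 0.016). GINS2, also called PSF2, was at 3.73 and 3.51 FPKM in NC and at 7.81 and 5.76 FPKM in A3B OE, a log2 fold change of 0.74 (SE 0.17, adjusted p = 0.030). Its partner in the GINS tetramer, GINS1 (PSF1), was at 4.65 and 4.75 FPKM in NC and at 6.65 and 7.07 FPKM in A3B OE. GINS1 had the smallest change of the 10 at 0.46 (SE 0.12, interval 0.17 to 0.76, adjusted p = 0.049). MCM10, which is not a subunit of CMG and had the lowest level of the 10 in every group, was at 2.92 and 3.10 FPKM in NC and at 4.54 and 4.76 FPKM in A3B OE, a log2 fold change of 0.49 (SE 0.13, interval 0.18 to 0.81, adjusted p = 0.0497). The replicates of MCM10 and GINS1 lay close together, but both adjusted p values were just under the threshold of 0.05 and rose above it when FPKM were quantile-normalized, with ranges of 0.031 to 0.18 for MCM10 and 0.025 to 0.18 for GINS1 over all alternatives, the highest being those without the second A3B OE library. Without the first A3B OE library the calls of MCM2, MCM3 and MCM7 were kept, 3 of 10, and without the second 6 were kept. With no filter on low values those of MCM2, MCM3 and MCM6 were kept, also 3 of 10, where 555 of 15736 genes tested were called higher.

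**Figure D1:**
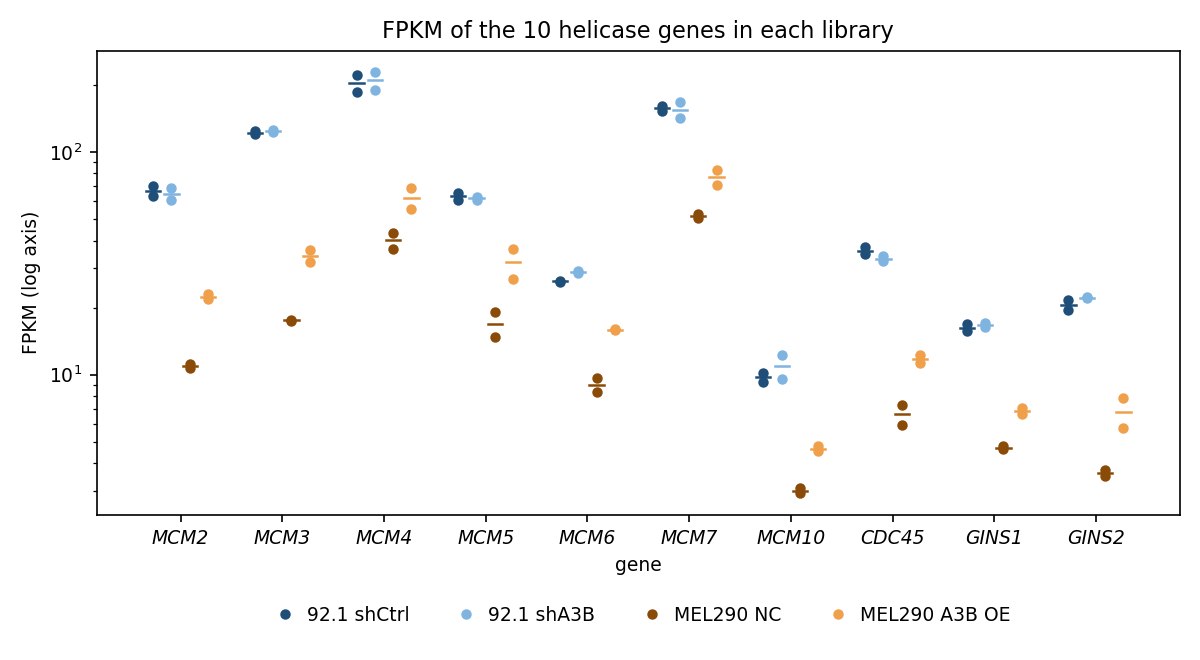
FPKM of the 10 genes in each of the 8 libraries, on a log axis. Points are single libraries, coloured by group, and short lines are the group means of 2 libraries. The A3B OE points lie above the NC points for each gene and below all 92.1 points, and the shCtrl and shA3B points overlap for 7 of the 10 genes.

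In 92.1 the question was whether depletion of A3B moved the same genes. None of the 10 passed the test, where 1 of 11605 genes did (0.00862%), and that gene was A3B. None of the 10 was past an unadjusted p of 0.05 either, which 336 of the genes tested were. The log2 fold changes of shA3B over shCtrl ran from -0.12 for CDC45 to 0.14 for MCM10, with 6 above 0, a median of 0.03 and adjusted p = 0.999 for each. The 95% confidence intervals lay between -0.41 and 0.50, and for the hexamer subunits between -0.34 and 0.42, which still leaves room for changes of moderate size.

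The 92.1 libraries held these transcripts at high and similar levels in both groups. MCM2 was at 63.5 and 70.1 FPKM in shCtrl and at 69.1 and 60.8 FPKM in shA3B. MCM3 was at 121 and 124 FPKM in shCtrl and at 125 and 123 FPKM in shA3B. MCM5 was at 60.8 and 65.6 FPKM in shCtrl and at 63.0 and 60.6 FPKM in shA3B. For all 3 the groups overlapped. MCM4 was at 186 and 222 FPKM in shCtrl and at 190 and 229 FPKM in shA3B, so that its libraries differed more within a group than between groups. MCM7 was at 152 and 162 FPKM in shCtrl and at 168 and 142 FPKM in shA3B, where the groups overlapped again. MCM6 stood apart, at 26.4 and 26.0 FPKM in shCtrl and at 29.1 and 28.6 FPKM in shA3B, with no overlap and a log2 fold change of 0.13 (interval -0.16 to 0.42).

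Among the factors that complete or start the helicase, CDC45 was at 34.7 and 37.3 FPKM in shCtrl and at 34.0 and 32.2 FPKM in shA3B, the only gene of the 10 with both shA3B libraries below both shCtrl libraries. Its log2 fold change was -0.12 (interval -0.41 to 0.18). GINS2 was at 19.5 and 21.7 FPKM in shCtrl and at 22.2 and 22.0 FPKM in shA3B, again without overlap and with the opposite sign, 0.10 (interval -0.21 to 0.40). GINS1 overlapped between the groups, at 16.8 and 15.6 FPKM in shCtrl and at 17.1 and 16.3 FPKM in shA3B. MCM10 overlapped as well, at 10.2 and 9.25 FPKM in shCtrl and at 9.56 and 12.3 FPKM in shA3B, its second shA3B library being the highest of the 4. Of the 10 genes, 2 thus had both shA3B libraries above shCtrl and 1 had both below, against 15.3% and 13.3% of the genes tested.

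Whether the response differed between the lines was tested directly, as the log2 fold change of A3B OE over NC minus that of shA3B over shCtrl, in a fit of all 8 libraries. The perturbations are opposite in direction, so genes that rose with A3B in both lines would also differ by this measure. The difference was above 0 for all 10 genes, with a median of 0.64 against 0.0031 for all genes tested, and 3 of 10 passed the test, where 3.06% of 12673 genes were called in that direction. The 3 were MCM2, with a difference of 1.00 (adjusted p = 0.012), MCM3, with 0.89 (adjusted p = 0.011), and CDC45, with 0.86 (adjusted p = 0.030). MCM6 lay at the threshold, with 0.64 (adjusted p = 0.0501), and MCM5 had a large but less precise difference of 0.90 (adjusted p = 0.073). MCM10 had the smallest difference, 0.35 (adjusted p = 0.38). The remaining genes, MCM4, MCM7, GINS1 and GINS2, had differences of 0.42 to 0.64 that did not pass, although 9 of the 10 genes had an unadjusted p under 0.05. Taken instead as A3B-high minus A3B-low cells in each line, the difference was again above 0 for all 10 genes. By this measure 3 of the 10 passed, where 466 of 12673 genes were called in that direction. MCM2 had 0.92 (adjusted p = 0.015), MCM3 0.95 (adjusted p = 0.0093) and MCM6 0.90 (adjusted p = 0.015), while CDC45, with 0.63 (adjusted p = 0.069), did not pass. None of the first 3 calls was kept when the second NC library or the first A3B OE library was left out, and the count was 1 without the second A3B OE library and 2 without any other.

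**Figure D2:**
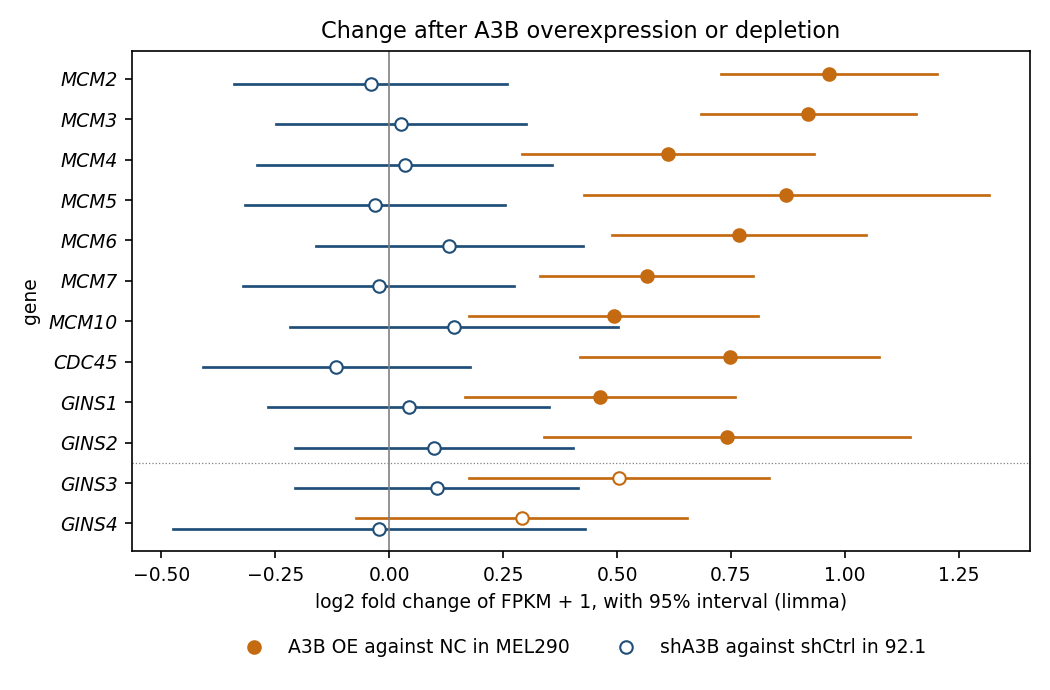
Log2 fold change of each of the 10 genes, on the log2(FPKM + 1) scale, with 95% confidence intervals as bars, for A3B OE over NC in MEL290 and shA3B over shCtrl in 92.1. Filled symbols passed an adjusted p of 0.05, and GINS3 and GINS4 stand below the dotted line. For the 10 genes above it, each MEL290 interval lies above 0 and each 92.1 interval crosses 0.

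The control cells of the lines differed far more than either perturbation moved these genes. All 10 genes were higher in shCtrl than in NC and all 10 passed the test, where 40.2% of 12673 genes were called higher in 92.1. Their median log2 difference was 2.04 against 0.08 for all genes tested. MCM3 differed most, 122 ± 2.13 against 17.5 ± 0.0878 FPKM (SD, n = 2 each), a ratio of 6.96, followed by MCM2 at 6.09 and GINS2 at 5.70. The smallest ratios were those of MCM6 at 2.93 and MCM7 at 3.04. Overexpression of A3B did not bring MEL290 to the level of 92.1, since for each gene the lowest 92.1 library was 1.63 to 3.33 times the highest MEL290 library. Each line had its own control, and the tables of the 2 lines name their gene column differently, so cell line, control cells and any difference in handling or processing cannot be told apart here.

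The order of the 10 genes by level also differed between the lines. In both groups of 92.1 the order in FPKM was MCM4, MCM7, MCM3, MCM2, MCM5, CDC45, MCM6, GINS2, GINS1 and MCM10, with MCM2 and MCM5 overlapping between libraries. In MEL290 MCM7 led, followed by MCM4, MCM3 and MCM5, the last 2 of which overlapped, and then by MCM2, MCM6 and CDC45. GINS1 was above GINS2 in NC, while in A3B OE their libraries overlapped, and MCM10 was last in both groups.

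The hexamer contains 1 copy of each subunit, so the transcripts were also set against each other. MCM2 to MCM7 summed to 142 and 150 FPKM in NC and to 263 and 223 FPKM in A3B OE, 146 ± 5.18 against 243 ± 28.7 FPKM (SD, n = 2), a ratio of 1.67. An exact two-sided permutation test gave p = 0.33, the smallest that 2 libraries against 2 allow. The sum was 610 and 669 FPKM in shCtrl and 644 and 644 FPKM in shA3B, a ratio of 1.01 (exact permutation p = 1).

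Transcript levels were uneven across the subunits in every library. The highest subunit was 4.44 to 8.53 times the lowest, MCM6 in all 8 libraries, and this ratio was 6.51 to 8.53 in 92.1 and 4.44 to 6.09 in MEL290. MCM4 made up 29.5% to 35.5% of the sum in the 92.1 libraries and 24.7% to 28.9% in those of MEL290. MCM7 showed the opposite pattern, with 22.1% to 26.1% in 92.1 and 31.6% to 37.0% in MEL290. MCM3 took 18.5% to 19.7% in 92.1 and 11.8% to 14.4% in MEL290. Within MEL290 the shares of MCM2 and MCM3 were higher in both A3B OE libraries than in both NC libraries, 8.70% and 9.78% against 7.87% and 7.17% for MCM2, and 13.7% and 14.4% against 12.3% and 11.8% for MCM3. The share of MCM7 was lower in A3B OE, 31.6% and 31.8% against 37.0% and 33.8%. The ratio of MCM2 to MCM7 was accordingly 0.213 and 0.212 in NC, 0.275 and 0.307 in A3B OE, and 0.412 to 0.434 in the 4 libraries of 92.1.

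The ratio of the hexamer to its partners was less different between the lines than the levels. The mean FPKM of MCM2 to MCM7 was 2.93 to 3.33 times CDC45 in the 92.1 libraries and 3.04 to 4.19 times CDC45 in the MEL290 libraries. It was 4.28 to 5.39 times the mean of GINS1, GINS2, GINS3 and GINS4 in 92.1 and 3.52 to 5.00 times in MEL290. These ranges overlap, although all the genes in them were higher in 92.1.

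The other CMG subunits, GINS3 and GINS4, were both higher on average in A3B OE but neither passed the test. GINS3 was at 6.12 and 5.63 FPKM in NC and at 7.99 and 9.58 FPKM in A3B OE, a log2 fold change of 0.51 (adjusted p = 0.052). GINS4 was at 12.5 and 10.8 FPKM in NC and at 12.7 and 16.4 FPKM in A3B OE, a log2 fold change of 0.29 (adjusted p = 0.23). With GINS1 and GINS2, 2 of the 4 GINS transcripts therefore passed.

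The counts in the lists that follow are to be read against the 10.3% of all genes tested that were called higher in MEL290 and the 7.49% called lower. Of 10 helicase loading genes, 4 rose in MEL290 and none fell, with a median log2 fold change of 0.39. They were GMNN, which encodes the CDT1 inhibitor geminin (1.03, adjusted p = 0.0072), ORC1 (0.88, adjusted p = 0.011), CDT1 (0.70, adjusted p = 0.021) and the MCM chaperone gene MCMBP (0.47, adjusted p = 0.020). ORC3 had the lowest value, -0.05. Of 13 activation genes 4 rose and none fell, with a median of 0.53. These were DBF4 and DBF4B, which encode activators of the CDC7 kinase (each 0.61, adjusted p = 0.023 and 0.026), RECQL4 (0.78, adjusted p = 0.035) and CDK2 (0.72, adjusted p = 0.0089), while the cyclin gene CCNE1 had the lowest value, -0.42 (adjusted p = 0.11).

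The genes of proteins that work with CMG at the fork moved in 1 direction, with 9 of 12 higher and none lower and a median of 0.62. POLD1, the catalytic subunit of the lagging-strand polymerase, had 0.99 (adjusted p = 0.0052), and the DNA ligase gene LIG1 had 0.87 (adjusted p = 0.0037). POLA1, PRIM1 and PRIM2 of the priming complex had 0.85, 0.73 and 0.67, and the sliding clamp gene PCNA had 0.41 (adjusted p = 0.012). The others that rose were CLSPN, FEN1 and TIMELESS, with 0.71, 0.57 and 0.56. WDHD1, whose product links CMG to the priming polymerase, had the lowest value of the list, 0.39, and did not pass.

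Genes of CMG unloading were more divided, with 3 of 8 higher, 1 lower and a median of 0.08. TRAIP, a ubiquitin ligase acting on CMG in mitosis, had 1.07 (adjusted p = 0.0059), LRR1, the substrate receptor of the ligase that ends replication, had 0.52 (adjusted p = 0.042), FAF1 had 0.36 (adjusted p = 0.030), and VCP had -0.35 (adjusted p = 0.019). Of the MCM paralogs outside the hexamer, MCM8, which acts in recombination, rose by 0.63 (adjusted p = 0.022), its partner MCM9 had -0.10, and MCMDC2 was too low to be tested. Of 10 E2F and RB family genes 8 could be tested, 1 rose and none fell, a share near that of all genes, with a median of 0.15. The gene that rose was RBL1 (0.68, adjusted p = 0.026), E2F1 had 0.42 (adjusted p = 0.057), and E2F3 had the lowest value, -0.25. E2F2 and E2F8 were too low to be tested, with E2F2 at 0.331 and 0.292 FPKM in NC and at 1.24 and 0.895 FPKM in A3B OE, and E2F8 at 0.175 and 0.163 FPKM in NC and at 0.480 and 0.503 FPKM in A3B OE.

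Markers of dividing cells moved with the helicase genes. All 8 of them were higher in A3B OE, with a median log2 fold change of 1.05 and a range from 0.80 for the mitotic checkpoint gene BUB1 to 1.39 for MKI67, the gene of the Ki-67 antigen. Their summed level was 182 and 174 FPKM in NC, 378 and 365 FPKM in A3B OE, and 374 to 389 FPKM in the 92.1 libraries. The sum was alike in A3B OE and 92.1. Of its genes only TOP2A overlapped, at 46.5 and 52.1 FPKM in A3B OE and 36.4 to 50.9 FPKM in 92.1. In A3B OE, MKI67, CCNB1 and BUB1 were above all 92.1 libraries, and CCNA2, PLK1, AURKB and BIRC5 were below them. MKI67 was at 29.0 and 30.6 FPKM against 2.05 to 9.43 FPKM in 92.1, and PLK1 at 39.3 and 35.9 FPKM against 52.5 to 64.2 FPKM. The summed MCM2 to MCM7 level per unit of this sum was 0.784 and 0.860 in NC, 0.697 and 0.610 in A3B OE, and 1.63 to 1.78 in 92.1. The part of dividing cells in the rise of the helicase genes was not tested. None of these lists had a called gene in 92.1, where ORC4 (0.55) and RFC1 (0.34) alone had an unadjusted p under 0.05 and the proliferation markers had a median of 0.12.

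**Figure D3:**
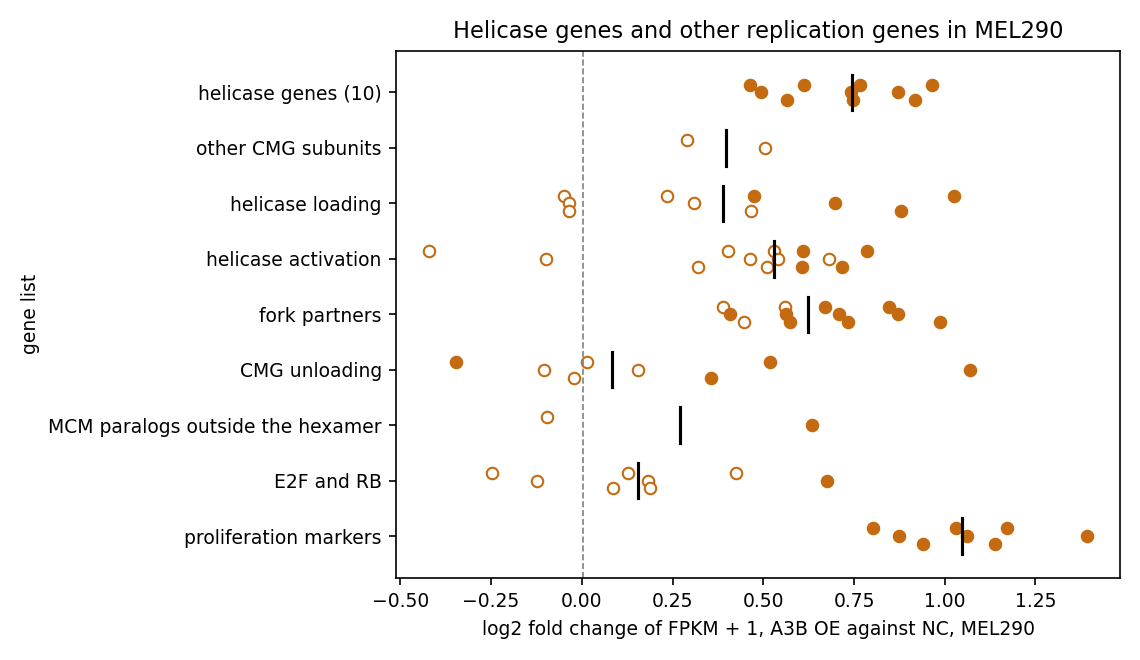
Log2 fold change of A3B OE over NC in MEL290, on the log2(FPKM + 1) scale, for the 10 helicase genes and for each list of related genes. Each point is a gene, filled where it passed an adjusted p of 0.05, and short lines are medians. The medians of the helicase genes and the proliferation markers are 0.74 and 1.05, and that of the unloading genes is 0.08.

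On GRCh38 with GENCODE release 44, the hexamer genes lie at chr3:127598410-127622436 (MCM2), chr6:52264014-52284881 (MCM3), chr8:47960185-47978160 (MCM4), chr22:35400134-35425431 (MCM5), chr2:135839626-135876443 (MCM6) and chr7:100092233-100101940 (MCM7), so none shares a chromosome with another. CDC45 lies at chr22:19479457-19520612, GINS1 at chr20:25391008-25452700, GINS2 at chr16:85676198-85690073 and MCM10 at chr10:13161558-13211110. Some of these genes share their neighbourhood with another gene, and the neighbours were singled out after their values had been seen. By the outermost GENCODE starts, MCM2 begins 143 bases from TPRA1, CDC45 255 bases from UFD1 and GINS1 173 bases from ABHD12, each on the opposite strand. For GINS1 this start is upstream of its RefSeq promoter window, chr20:25407423-25407722, so the distance to ABHD12 does not hold for that window. TPRA1 and UFD1 had log2 fold changes of -0.16 and -0.10 in MEL290 and did not pass, whereas ABHD12 fell, from 34.1 and 38.5 FPKM to 27.6 and 28.0 FPKM, by 0.37 on the log2 scale (adjusted p = 0.043). MCM4 starts 7 bases from PRKDC, the gene of the DNA repair kinase DNA-PKcs, which was at 33.9 and 34.1 FPKM in NC and at 50.7 and 46.8 FPKM in A3B OE, a log2 fold change of 0.51 (adjusted p = 0.012). MCM7 overlaps AP4M1, GINS1 overlaps NINL and GINS2 overlaps GSE1 on opposite strands. Whether counting used strand is not stated, so fragments in the overlaps cannot be assigned with certainty, but none of these 3 partners passed the test in MEL290.

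By likeness of profile, the genes closest to the mean of the 10 were H2AZ1, a histone variant gene, FBL, the nucleolar methyltransferase gene, HIP1, TACC3, a gene of the mitotic spindle, and PIH1D1. Likeness was the root mean square difference of log2(FPKM + 1) deviations from the mean of each line over 8 libraries, among 9883 genes whose mean was 4 FPKM or more, and was 0.033 to 0.043 for these 5 genes. The 10 genes themselves were 0.073 to 0.14 from their own mean. Of the 9883 genes, 0.567% lay at least as close as GINS2, the closest of the 10, and 5.55% at least as close as MCM10, the farthest. The points are 8 libraries that fall into 2 lines, so these values are a description only.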

How the data were processed

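RNA was measured in 8 libraries from 2 cell lines, 2 per group, and samples were grouped by the treatment and genotype named in the labels. STAR, with GRCh38 as reference, was the authors' aligner, and Cufflinks gave FPKM per gene over Ensembl release 75, an annotation made for the older assembly, and the authors deposited 1 FPKM table per library. Counts of fragments were not used here, so the depth, estimated from the lowest FPKM steps, is rough, with 18% to 30.2% of genes within 5% of the peak. It is higher in A3B OE than in NC, and no counting interval was given.

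FPKM were tested as log2(FPKM + 1) with limma 3.58.1 in R 4.3.3 (lmFit, then eBayes with trend). Genes entered a fit with an FPKM minimum of 1 in 2 or more libraries of a line, p-values were adjusted by the Benjamini-Hochberg procedure over all genes tested, and the threshold was 0.05. Fold changes on this scale understate changes of low genes. Each perturbation was fitted with the control of its own line. The difference between lines and the comparison of the controls used all 8 libraries. The fit was also run on simulated data with independent normal errors whose spread followed the level. Such data share the assumptions of limma, so they do not show that the fit holds for these libraries. Coordinates came from GENCODE release 44 on GRCh38, in which 19033 of 19952 symbols were found, and promoter sequences from RefSeq. All 10 helicase genes were named. Of the related lists, genes that were called in MEL290 or had the largest or smallest change were named, and likeness named the 5 closest genes. The helicase genes, lists and tests were chosen with earlier results of these data known. Alternatives were a fit without trend, quantile normalization, upper quartile scaling, a stricter and no filter, a pseudocount of 0.1, a replicate block, removal of GC and length trends, a fit of all libraries, A3B-high minus A3B-low as the difference between lines, and each library left out.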

Additional observations from a re-analysis of the deposited data

Results flagged for a closer look

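Of the helicase genes, 3 passed in a direct test of the difference, that is, the log2 fold change of A3B OE over NC in MEL290 minus that of shA3B over shCtrl in 92.1 (limma, adjusted over all genes tested). The difference was 1.00 for MCM2 (adjusted p = 0.012), 0.89 for MCM3 (adjusted p = 0.011) and 0.86 for CDC45 (adjusted p = 0.030). In this direction 3.06% of all genes tested were called. CDC45 was not called under the replicate block (adjusted p = 0.082), with no filter on low values, or when A3B-high was set against A3B-low cells in each line (adjusted p = 0.069), its adjusted p over the alternatives with all libraries running from 0.025 to 0.082. With a library left out, CDC45 kept its call in 1 of 8 cases, the one without the first NC library. None of the 3 was called without the second NC library or without the first A3B OE library.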

How the results depend on the processing

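In MEL290 all 10 genes kept a positive log2 fold change under every alternative. The count of 10 called genes became 3 with no filter on low values and 3 to 8 when single libraries were removed, and it was 7 to 10 under the other alternatives. With 1 library left in a group, its spread is assumed to be that of the other group. Calls over all genes moved too, with 1195 of 11611 called higher in the main fit, 555 of 15736 with no filter and 895 of 11611 under the replicate block. MCM10 and GINS1 were not called with quantile normalization or with the GC and length trends removed, nor MCM4 without the trend. In 92.1 none of the 10 was called under any alternative. The difference between lines had 5 called genes with the GC and length trends removed, 2 to 4 under the other alternatives (3 as A3B-high minus A3B-low, with MCM6 in place of CDC45) and 0 to 2 when single libraries were removed. The difference of controls had 10 in all. The summed MCM2 to MCM7 difference was 76.8 to 117 FPKM in MEL290 and -24.8 to 33.9 FPKM in 92.1 with a library left out.

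The replicate numbers were not shown to pair the libraries, since deviations from the group means correlated between libraries of equal number at 0.19 for 92.1 and at -0.03 for MEL290. Under the replicate block 7 genes passed in MEL290 (MCM4, MCM10 and GINS1 did not), 0 in 92.1 and 2 in the difference between lines.

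Sign changes were seen in 92.1 alone, among values near 0. MCM5 was 0.0040 with quantile normalization, 0.0020 with upper quartile scaling and 0.022 with GC and length trends removed, MCM7 was 0.0099, 0.011 and 0.024, and MCM2 and GINS1 were 0.019 and -0.023 with those trends removed. With a library left out the ranges were -0.13 to 0.050 for MCM2, -0.10 to 0.17 for MCM4, -0.086 to 0.023 for MCM5, -0.14 to 0.095 for MCM7, -0.022 to 0.31 for MCM10 and -0.0069 to 0.093 for GINS1. The cause was not tested.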
